A study of Homo sapiens with 49 samples.

Results

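Zinc finger genes on chromosome 19 were described here as the protein-coding GENCODE genes of human chromosome 19 (hg19) whose symbol is ZNF followed by a number. The rule found 249 genes, out of 1480 protein-coding genes on this chromosome and 20098 on chromosomes 1 to 22 and X. They were set beside the other 1231 genes of chromosome 19 and, where useful, the 266 ZNF genes of other chromosomes. ChIP-seq, which locates a protein or histone mark on the genome by sequencing the DNA pulled down with it, had been carried out in Ishikawa cells, an endometrial adenocarcinoma line, and in T-47D, derived from a ductal carcinoma of the breast. Both lines were kept in RPMI medium with serum, and before DMSO or E2 they were moved for several days to hormone-depleted medium with charcoal-stripped serum and no phenol red. Cells received the vehicle DMSO or 17β-estradiol (E2) at 10 nM, for 1 h before ChIP of the proteins JUN, LSD1, MAX, MYC, RARA, TAF1 and RNA polymerase II (RNAPII, T-47D only) and for 8 h before ChIP of H3K27me3, H3K4me1 and H3K4me3. SIN3A was profiled in stripped and in full media in both lines, and H3K36me3 in full media in Ishikawa alone. Of 49 samples, 45 had a peak list (21 Ishikawa, 24 T-47D), in 43 groups; only T-47D RNAPII was replicated, with 2 lists per treatment, and for every other group the values below come from a single list and were not tested.

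ZNF genes encode proteins with tandem C2H2 zinc fingers, each of which contacts a few bases of DNA. Many carry a KRAB domain at the N-terminus, through which they recruit the corepressor TRIM28 and the histone methyltransferase SETDB1, and many bind and silence transposable elements. On chromosome 19 they lie in clusters that grew by tandem duplication, so that neighbours are often close relatives. In the translated coding sequences of 248 of the 249 genes, the median number of finger patterns was 12.5, and 175 held a KRAB-type pattern (phenylalanine, any 2 residues, then glutamate, glutamate and tryptophan). ZNF274 had no open coding sequence in this build and was left out of these 2 counts. A gene without the KRAB-type pattern may still hold a KRAB domain, since other forms of the domain were not searched for.

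Upstream sequences of 8 members are shown because they carry the main contrast of these data: ZNF253, ZNF93 and ZNF729 had start peaks in T-47D lists alone, ZNF208 had none in any list, ZNF91 was marked in both lines, ZNF132 and ZNF577 had start peaks in Ishikawa lists alone, and ZNF154 had none in any list. The first 5 lie in the same cluster. Each run is the 200 bases before the start site, read 5′ to 3′ on the gene's strand from GRCh37, with CG dinucleotides in capitals.
ZNF253: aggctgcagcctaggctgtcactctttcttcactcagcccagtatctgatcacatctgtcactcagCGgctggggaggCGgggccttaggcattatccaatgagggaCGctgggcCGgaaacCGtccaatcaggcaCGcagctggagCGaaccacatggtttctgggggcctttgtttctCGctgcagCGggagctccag
ZNF93: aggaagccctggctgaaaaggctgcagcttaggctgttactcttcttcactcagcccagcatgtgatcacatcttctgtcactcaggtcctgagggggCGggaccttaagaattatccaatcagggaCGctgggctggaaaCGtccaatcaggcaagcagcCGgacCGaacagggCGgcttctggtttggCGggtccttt
ZNF729: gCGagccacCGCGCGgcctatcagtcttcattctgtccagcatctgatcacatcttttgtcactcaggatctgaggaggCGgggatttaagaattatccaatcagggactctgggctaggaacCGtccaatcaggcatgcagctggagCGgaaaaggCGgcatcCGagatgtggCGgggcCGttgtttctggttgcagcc
ZNF208: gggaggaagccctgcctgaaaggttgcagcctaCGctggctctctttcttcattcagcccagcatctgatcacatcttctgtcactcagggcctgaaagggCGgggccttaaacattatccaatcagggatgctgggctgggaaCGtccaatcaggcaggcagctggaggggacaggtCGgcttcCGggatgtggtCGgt
ZNF91: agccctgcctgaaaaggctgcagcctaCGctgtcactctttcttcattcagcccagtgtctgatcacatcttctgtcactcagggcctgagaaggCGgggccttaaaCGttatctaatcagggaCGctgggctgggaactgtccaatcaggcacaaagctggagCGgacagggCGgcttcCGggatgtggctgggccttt
ZNF132: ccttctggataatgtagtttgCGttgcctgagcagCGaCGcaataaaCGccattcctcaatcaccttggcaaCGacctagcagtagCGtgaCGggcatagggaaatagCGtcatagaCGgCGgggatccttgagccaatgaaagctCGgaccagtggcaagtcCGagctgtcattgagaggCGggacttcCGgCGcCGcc
ZNF577: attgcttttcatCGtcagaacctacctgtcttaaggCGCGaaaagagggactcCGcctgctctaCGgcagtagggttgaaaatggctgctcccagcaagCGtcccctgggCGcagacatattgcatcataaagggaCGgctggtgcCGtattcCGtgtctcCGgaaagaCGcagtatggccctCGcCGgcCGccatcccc
ZNF154: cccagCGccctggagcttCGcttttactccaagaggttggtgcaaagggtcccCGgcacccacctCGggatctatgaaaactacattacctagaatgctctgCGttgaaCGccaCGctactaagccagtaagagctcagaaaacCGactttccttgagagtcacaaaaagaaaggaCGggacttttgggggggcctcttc
Their positions were, in the same order, chr19:19976491-19976690 (plus strand), chr19:20011555-20011754 (plus strand), chr19:22469043-22469242 (plus strand), chr19:22193746-22193945 (minus strand), chr19:23578274-23578473 (minus strand), chr19:58951521-58951720 (minus strand), chr19:52391205-52391404 (minus strand) and chr19:58220573-58220772 (minus strand). Within the first 5, the upstream sequences were 74.5% to 88.5% identical over the 10 pairs, the highest being ZNF208 and ZNF91, and the remaining 18 pairs were 55.0% to 62.0% identical. Shared stretches stand at different offsets in the 200 bases, so identity was not counted position by position. The identity that unrelated sequences reach by this count was not measured, so 55.0% to 62.0% does not show relatedness. The 5 shared a run of 13 bases, gtccaatcaggca. In the order printed, CG dinucleotides in the 200 bases numbered 9, 7, 11, 6, 7, 16, 15 and 9. The highest were thus ZNF132 and ZNF577, while ZNF154 (9) lay within the range of the first 5.

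A gene was counted as having a start peak when a deposited peak overlapped the 250 bp either side of the start of its canonical transcript by at least 1 bp. Fold enrichment is the peak caller's ratio of ChIP signal to its local background at the summit. H3K4me3, the histone mark of active promoters, was found at 212 of 249 member starts (85.1%) in each of the Ishikawa DMSO, Ishikawa E2 and T-47D DMSO lists and at 201 (80.7%) in the T-47D E2 list. Among the other genes of chromosome 19 the shares in the same order of lists were 56.7%, 58.6%, 50.4% and 44.1%. The ZNF genes of other chromosomes were close to the members, with 83.5% in Ishikawa DMSO and 78.6% in T-47D DMSO. Where a peak was present its height was alike: the median H3K4me3 fold enrichment was 19.8 at member starts and 20.4 at other starts in Ishikawa DMSO, and 14.2 and 13.5 in T-47D DMSO.

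Proteins of the transcription machinery followed the mark. TAF1, the largest subunit of TFIID, had a peak at 204 member starts (81.9%) under DMSO and 192 (77.1%) under E2 in Ishikawa, against 50.6% and 45.6% of other genes. SIN3A, a scaffold of histone deacetylase complexes, was in Ishikawa at 202 (81.1%) in stripped media and 186 (74.7%) in full media, against 50.9% and 41.0%. The T-47D SIN3A lists, of 75 and 649 regions, had a peak at 0 member starts and at 1 and 6 other starts. In T-47D, RNAPII was at 225 and 166 member starts in the 2 DMSO lists and at 222 and 192 in the 2 E2 lists, against 59.7%, 34.3%, 53.5% and 42.1% of other genes. JUN, a subunit of the AP-1 factor, was at 221 member starts (88.8%) under DMSO and 214 (85.9%) under E2 in T-47D, against 50.9% and 54.3%. T-47D TAF1 was listed at fewer starts, 57 (22.9%) under DMSO and 74 (29.7%) under E2, against 11.3% and 15.4%. The ZNF genes of other chromosomes had high shares too. In Ishikawa they had TAF1 at 78.6% and 74.4% and SIN3A at 75.6% and 65.4%. In T-47D they had RNAPII at 83.1% and 65.4% under DMSO and 80.8% and 71.8% under E2. Their T-47D shares under DMSO and E2 were 75.9% and 77.4% for JUN and 28.2% and 34.6% for TAF1.

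**Figure D1:**
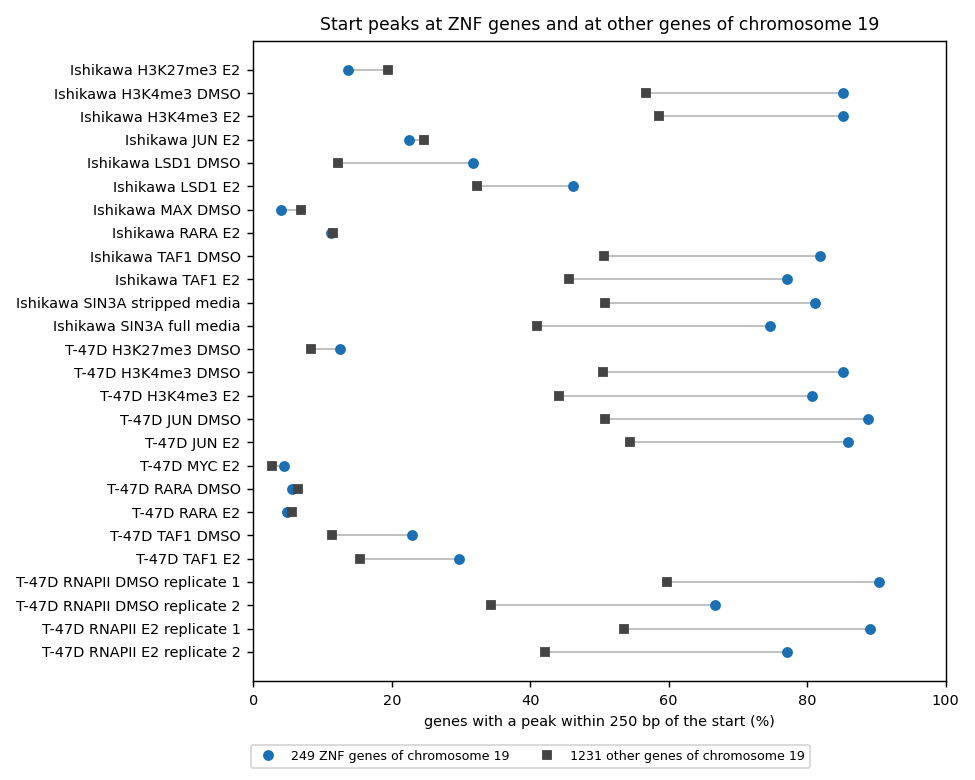
Share of genes (x axis, %) with a peak within 250 bp of the start, for the 249 ZNF genes (circles) and the 1231 other genes of chromosome 19 (squares), in the 26 lists with 10 or more ZNF starts (y axis); each list is 1 library, so no error is drawn. The circles lie to the right of the squares for H3K4me3, TAF1, SIN3A, LSD1 and RNAPII, and to the left for Ishikawa H3K27me3 E2, at 13.7% against 19.5%.

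The starts marked by H3K4me3 were mostly the starts that held the other targets. Of the 212 members with H3K4me3 in Ishikawa DMSO, 203 (95.8%) had TAF1 and, in stripped media, 202 (95.3%) had SIN3A, while of the 37 without it 1 had TAF1 and 0 had SIN3A. Other genes were parted in the same way, with TAF1 at 87.2% of marked and 2.63% of unmarked starts and SIN3A at 87.7% and 2.63%. In T-47D DMSO, 211 of the 212 marked members (99.5%) had RNAPII in replicate 1 and 209 (98.6%) had JUN. The 37 unmarked members included 14 with RNAPII (37.8%) and 12 with JUN (32.4%). For other genes RNAPII was at 97.3% of marked and 21.5% of unmarked starts, and JUN at 89.2% and 11.8%. Peak summits differed in place. The median TAF1 summit was 29 bp downstream of member starts in Ishikawa DMSO, and the median JUN and RNAPII summits in T-47D DMSO (replicate 1 for RNAPII) were 26 bp and 33 bp downstream. H3K4me3 summits lay further in, at medians of 137 bp in Ishikawa and 161 bp in T-47D, with few summits on the start itself.

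**Figure D2:**
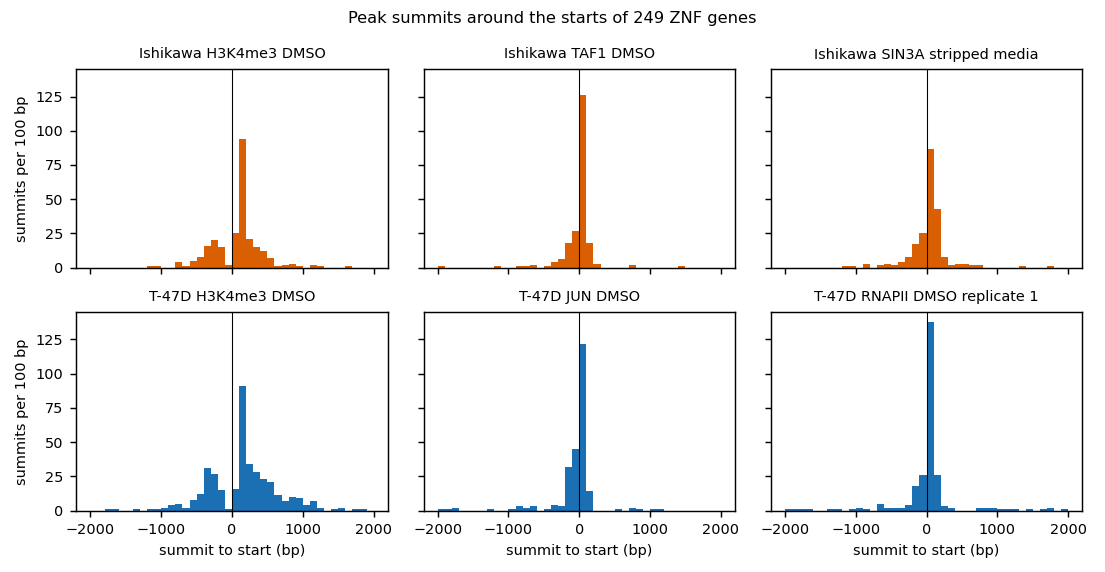
Number of peak summits per 100 bp (y axis) by distance from the start (x axis, bp, positive downstream) within 2000 bp of the 249 ZNF starts, in 6 lists. TAF1, SIN3A, JUN and RNAPII pile up in the first 100 bp downstream of the start, with 138 summits there for RNAPII, and H3K4me3 in the next 100 bp, with 94 in Ishikawa and 91 in T-47D.

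The remaining targets were listed at fewer member starts. LSD1 (KDM1A), a histone demethylase found with corepressors, was at 79 (31.7%) under DMSO and 115 (46.2%) under E2 in Ishikawa, against 12.3% and 32.3% of other genes, and at 0 in both T-47D lists, which hold 42 and 442 regions in all. Ishikawa JUN was at 1 under DMSO and 56 (22.5%) under E2, against 2.36% and 24.7%. Among the ZNF genes of other chromosomes, Ishikawa LSD1 was at 21.8% and 45.1% and Ishikawa JUN at 2.26% and 39.1%. RARA, the retinoic acid receptor alpha, was at 1 under DMSO and 28 (11.2%) under E2 in Ishikawa, against 2.44% and 11.5%, and at 14 and 12 in T-47D, against 6.50% and 5.61%. MAX, the partner of MYC at E-boxes, was at 10 member starts in Ishikawa DMSO (4.02%, against 6.82% of other genes). In T-47D E2 MAX was at 4 (1.61%, against 3.66%) and MYC at 11 (4.42%, against 2.68%). H3K4me1, a mark of enhancers, was at 1 member start in each Ishikawa list (2.19% of other genes under DMSO and 2.6% under E2) and at 0 in T-47D, where it was at 3 and 0 other starts. In all, 32 of the 45 lists had a peak at 1 or more member starts. In the 22 lists with 20 or more, the share of members was above that of other genes in 19. It was below in Ishikawa H3K27me3 E2, JUN E2 and RARA E2. This cut-off uses the members' own count, so it leaves out lists where member peaks are few. In the lists below the cut-off with a member start, the member share was lower than that of other genes except in T-47D MYC E2.

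The members fell into 21 stretches when neighbours less than 500 kb apart were joined, and 10 of these held 5 or more members, 235 in all. H3K4me3 sorted them by line. It was in all 4 lists at 182 members (73.1%; 527 of the other genes, 42.8%), in both Ishikawa lists and no T-47D list at 16 (6.43%), in both T-47D lists and no Ishikawa list at 15 (6.02%), and in none at 19 (7.63%). The remaining 17 were in 1 of the 2 lists of a line. The other genes were in these last 3 classes at 6.74%, 0.812% and 40.1%. These classes depend on how a start peak is counted. With a window of 1000 bp the T-47D class held 14 members and 11 other genes and the Ishikawa class 8 and 58. With a fold enrichment of at least 10 the T-47D class held 11 and 8 and the Ishikawa class 33 and 151, and with an overlap of at least 250 bp they held 3 and 3, and 89 and 272.

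**Figure D3:**
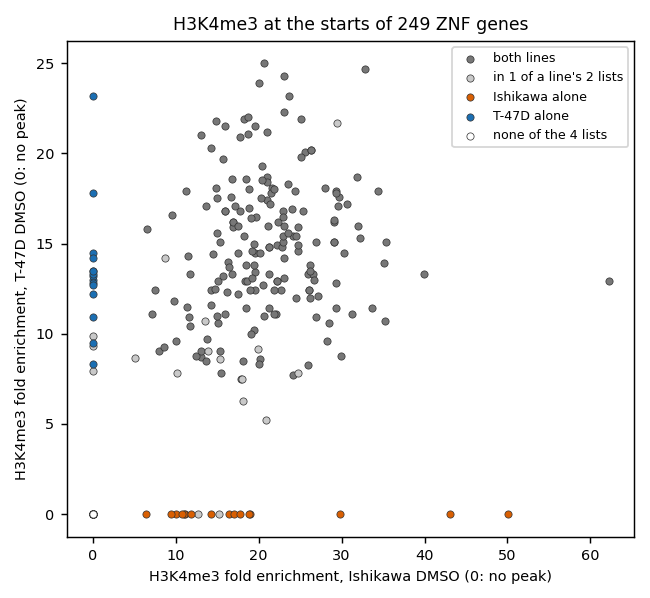
H3K4me3 fold enrichment at the 249 ZNF starts in Ishikawa DMSO (x axis) and T-47D DMSO (y axis), 1 point a gene, with 0 for no peak and colours for the class over the 4 lists. The points on the axes are the starts marked in 1 line, up to 50.1 for Ishikawa (ZNF577) and 23.2 for T-47D (ZNF729).

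The cluster from ZNF101 to ZNF254 (chr19:19779648-24269989, cluster 7) held 37 members, and 9 of the 15 in the T-47D class: ZNF506, ZNF253, ZNF93, ZNF90, ZNF486, ZNF737, ZNF729, ZNF98 and ZNF99. In Ishikawa, H3K4me3 was at 20 of the 37 (54.1%) in both lists, against 192 of the 212 members elsewhere (90.6%). In T-47D it was at 29 (78.4%) under DMSO and 28 (75.7%) under E2, against 183 (86.3%) and 173 (81.6%). Other Ishikawa targets were likewise at a smaller share of the cluster, TAF1 under DMSO at 20 of 37 and 184 of 212, SIN3A in stripped media at 19 (51.4%) and 183 (86.3%), and JUN under E2 at 2 and 54. T-47D RNAPII was also at a smaller share, 81.1% and 45.9% in DMSO replicates 1 and 2 against 92.0% and 70.3% elsewhere. In E2 replicates 1 and 2 it was at 83.8% and 54.1%, against 90.1% and 81.1%. T-47D JUN was at 81.1% of the cluster in both lists, against 90.1% under DMSO and 86.8% under E2. H3K27me3 in T-47D DMSO was at 2.70% against 14.2%. T-47D TAF1 was at a larger share of the cluster, 12 of 37 (32.4%) against 21.2% elsewhere under DMSO and 16 (43.2%) against 27.4% under E2. So was T-47D RARA, with 6 of the 37 in each list (16.2%) against 8 (3.77%) and 6 (2.83%) of the 212. Starts in this cluster were poorer in CG: the median ratio of observed to expected CG over the 501 bp window was 0.45 in the cluster and 0.79 elsewhere, and the median count 19 against 36. The cluster from ZNF565 to ZNF573 (chr19:36705567-38270226) stood at the other end, with all 26 members marked in all 4 lists.

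**Figure D4:**
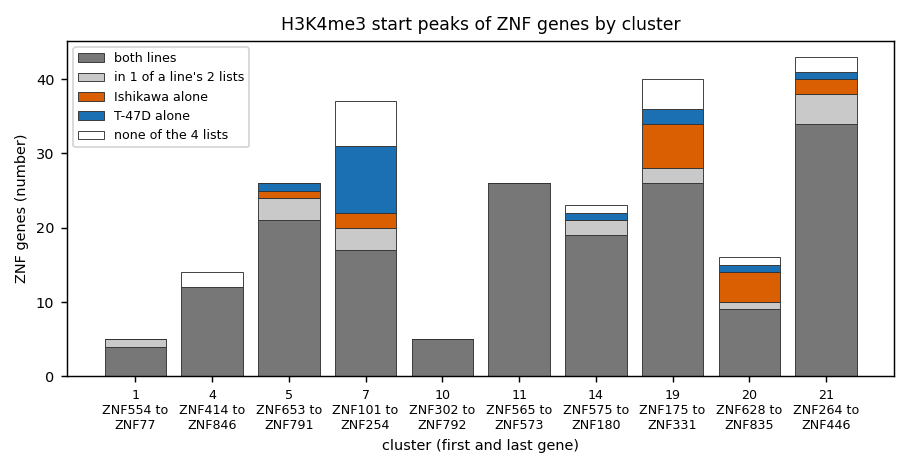
Number of ZNF genes (y axis) in each of the 10 clusters with 5 or more members (x axis, first and last gene), divided by their H3K4me3 class. Cluster 7 holds 9 genes marked in T-47D alone and 6 marked in no list, and cluster 11 only genes marked in both lines.

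All 15 starts of the T-47D class also had JUN in both lists and RNAPII in both replicates 1, and none had TAF1 or SIN3A in Ishikawa. In replicate 2, RNAPII was at 7 of the 15 (46.7%) under DMSO and 8 (53.3%) under E2. Of the 182 members marked in both lists of both lines, 145 (79.7%) and 163 (89.6%) had RNAPII in replicate 2. All 182 had it in both replicates 1, and 181 had JUN under DMSO and 173 under E2. Other genes of the T-47D class were not set beside these counts. ZNF253 had H3K4me3 at 17.8-fold under DMSO and 20.4-fold under E2, with RNAPII at 49.5 and 20.9 in the 2 DMSO lists and at 38.4 and 17.5 in the 2 E2 lists. For ZNF729 H3K4me3 was 23.2-fold under DMSO and 11.8-fold under E2, and RNAPII was listed in both replicates 1 (13.7 and 12.4) and in neither replicate 2. ZNF814, ZNF233, ZNF836, ZNF90, ZNF99 and ZNF98 had H3K4me3 between 11.5-fold and 15.1-fold in both lists. ZNF93, a KRAB protein known to bind LINE-1 elements, had 14.5 under DMSO and 10.0 under E2 and a peak in 8 T-47D lists and 0 Ishikawa lists. Its relative ZNF91, which binds SVA elements, was marked in both lines, at 16.8 and 18.2 in Ishikawa and at 18.6 and 14.6 in T-47D. With a window of 1000 bp, 14 of the 15 still had no H3K4me3 peak in either Ishikawa list, the exception being ZNF667.

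The Ishikawa class was of 2 kinds. ZNF132, ZNF577, ZNF578, ZNF331, ZNF471 and ZNF714 had no start peak of any target in the 24 T-47D lists. ZNF132 had H3K4me3 at 43.1-fold under DMSO and 41.8-fold under E2, ZNF577 at 50.1 and 25.2, and ZNF331, an imprinted gene, at 18.8 and 26.0. ZNF578 stood at 29.8 and 23.7 and ZNF471 at 17.8 and 17.3. The other 10 had RNAPII in T-47D all the same. ZNF574, at 19 and 20.3 for H3K4me3 in Ishikawa, had RNAPII at 104 and 28.0 in the DMSO lists and at 34.6 and 38.6 in the E2 lists, and JUN at 25.2 and 27.7. ZNF431 and ZNF787 also had RNAPII in 3 of the 4 lists. For 9 of the 16 a T-47D H3K4me3 peak lay within 1000 bp of the start, so that for these the class rests on the 250 bp window. Over all targets, 6 members had start peaks in Ishikawa lists alone (2.41%, against 5.04% of other genes). Start peaks in T-47D lists alone were at 18 (7.23%, against 4.47%), 11 of these 18 in cluster 7.

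**Figure D5:**
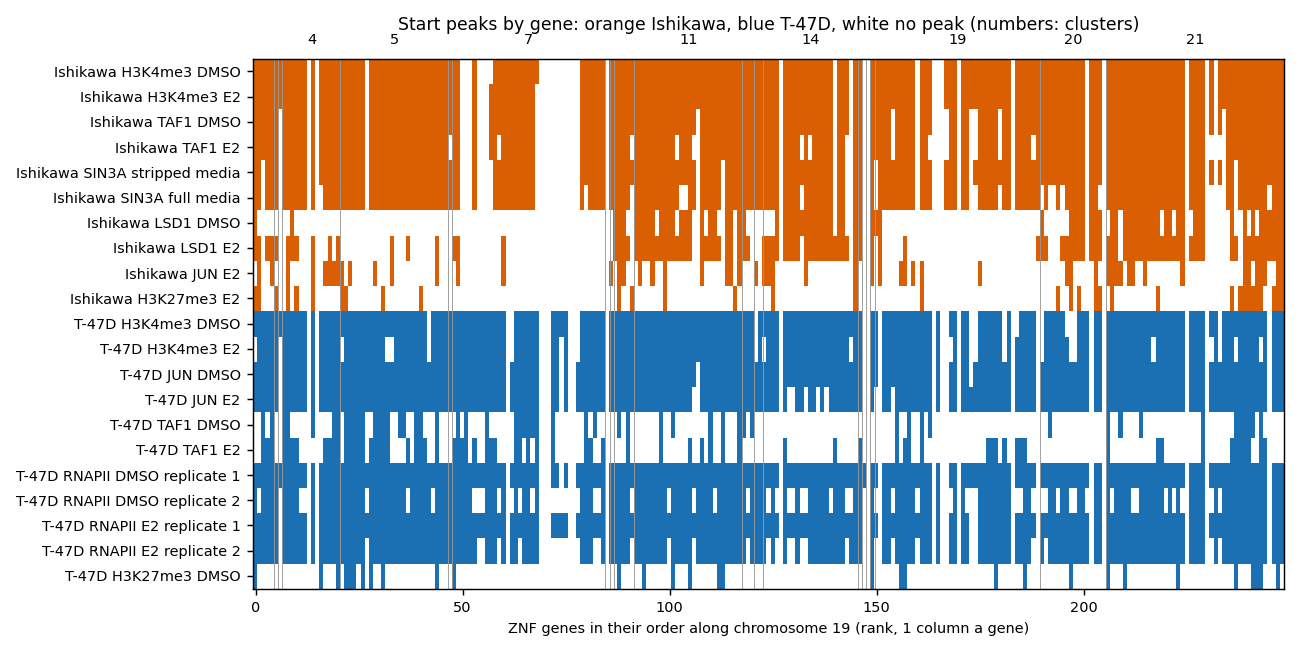
Start peaks of the 249 ZNF genes in their order along the chromosome (x axis, rank) in 21 lists (y axis), with orange for Ishikawa, blue for T-47D and white for no peak; grey lines part the clusters, and the larger ones are numbered. The white block of cluster 7 is wider in the Ishikawa H3K4me3, TAF1 and SIN3A lists than in the T-47D H3K4me3, JUN and RNAPII replicate 1 lists. LSD1 fills clusters 11, 14, 20 and 21 (22, 20, 11 and 34 genes under E2) more than 5, 7 and 19 (3 genes each).

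LSD1 was unevenly spread over the clusters in Ishikawa. Of members with H3K4me3 under E2, LSD1 was at 19 of 20 (95%) in the cluster from ZNF575 to ZNF180, at 34 of 40 (85.0%) from ZNF264 to ZNF446, at 22 of 26 (84.6%) from ZNF565 to ZNF573 and at 11 of 14 (78.6%) from ZNF628 to ZNF835. It was at 3 of 25 (12%) from ZNF653 to ZNF791, 3 of 20 (15%) in cluster 7 and 3 of 34 (8.82%) from ZNF175 to ZNF331. The other genes lying inside these last 3 stretches and marked by H3K4me3 under E2 numbered 8, 2 and 2, of which 2, 2 and 0 had LSD1. In the 4 clusters named before them the other genes with LSD1 were, in the same order, 3 of 7, 13 of 14, 3 of 5 and 5 of 7. Under DMSO the order was alike, with 18, 16, 27 and 8 members in the 4 clusters named first in the order ZNF565 to ZNF573, ZNF575 to ZNF180, ZNF264 to ZNF446 and ZNF628 to ZNF835, and 0, 0 and 2 in the last 3. Of members with H3K4me3 under E2 in the remaining clusters, LSD1 was at 6 of 12 (50%) from ZNF414 to ZNF846. It was at 4 of 5 (80%) both from ZNF554 to ZNF77 and from ZNF302 to ZNF792. The highest LSD1 peaks were at ZNF223 (42.6 under DMSO and 60.6 under E2), ZNF444 (39.8 and 34.4) and ZNF225 (23.1 and 30.7). These 3 genes were chosen after their values were seen. LSD1 under E2 was at 40.6% of the 175 genes with the KRAB pattern and 58.9% of the 73 without it. The pattern is not a full call of the KRAB domain, so these shares do not compare genes with and without the domain. Of those 73, 21 lie in the cluster from ZNF575 to ZNF180, and without that cluster the shares were 70 of 173 (40.5%) and 24 of 52 (46.2%). T-47D TAF1 under E2 was at 34.9% and 16.4%, and without that cluster at 35.3% and 19.2%.

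Of the 19 members with H3K4me3 in none of the 4 lists, 17 had no start peak in any of the 45 lists. They are 6.83% of the 249 members, and 33.5% of the other genes had no start peak in any list. The 17 were ZNF177, ZNF560, ZNF208, ZNF257, ZNF676, ZNF723, ZNF728, ZNF536, ZNF404, ZNF114, ZNF880, ZNF534, ZNF83, ZNF677, ZNF835, ZNF154 and ZNF587B. ZNF154, whose promoter is known to be methylated in many carcinomas, had a ratio of observed to expected CG of 0.76, near the members' median of 0.77. ZNF676 and ZNF404 each had 2 CG in the window of their canonical start. For both minus-strand genes this start lies inside the annotated gene. It is at 22379753 in ZNF676, which ends at 22398603, and at 44388116 in ZNF404, which ends at 44405537. Their CG counts therefore describe the canonical start alone. ZNF83 lacked a peak at its canonical start but had body peaks in 13 lists. The other 2 of the 19, ZNF730 and ZNF541, had RNAPII peaks in T-47D. The authors kept reads with a single best placement, and how well reads can be placed at these duplicated starts was not measured.

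The members with most finger patterns did not share a class. ZNF729 (39 patterns) was in the T-47D class, ZNF208 (36) had no start peak in any list, and ZNF91 (32) and ZNF850 (30) were marked in both lines, ZNF850 at 15.1 and 18.4 in Ishikawa and 10.6 and 9.45 in T-47D. ZNF845 (26) had H3K4me3 at 15.2 and 16.2 in Ishikawa and only under E2 in T-47D, at 8.95. Among the members known for roles in repression or cancer, ZNF274, which recruits SETDB1 to the 3′ ends of other zinc finger genes, had start peaks in 22 lists, 11 per line, with RNAPII at 95.3 and 23.5 under DMSO and 42.2 and 27.8 under E2. ZNF671 and ZNF382 were marked in both lines, at 18.9 and 20.1 in Ishikawa DMSO and 12.4 and 23.9 in T-47D DMSO. ZNF331 had start peaks in 7 Ishikawa lists and 0 T-47D lists.

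Starts holding many targets lay in several clusters. In Ishikawa ZNF805 had 8 of the 11 targets (H3K27me3, H3K4me3, JUN, LSD1, MAX, RARA, SIN3A and TAF1), and 7 members had 7, namely ZNF497, ZNF544, ZNF223, ZNF551, ZNF555, ZNF558 and ZNF470. In T-47D 7 members had 6 of 11, namely ZNF420, ZNF433, ZNF77, ZNF837, ZNF135, ZNF564 and ZNF8. High counts were not particular to members. In Ishikawa 7 targets were at 2.81% of members and 3.57% of other genes, and 8 at 0.402% and 0.650%. In T-47D 6 targets were at 2.81% and 2.36%, and 7 at 0% and 0.569%. The median was 4 targets per member start in Ishikawa and 3 in T-47D, against 3 and 2 for other genes. No target was found at 14.1% of members and 38.0% of other genes in Ishikawa, and at 9.24% and 38.6% in T-47D. ZNF544 and ZNF551 each have another protein-coding start within 500 bp, as have 32 of the 249 members, so their peaks cannot be given to 1 gene.

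The repressive mark H3K27me3 was found at 34 member starts (13.7%) in Ishikawa E2, against 19.5% of other genes, and at 31 (12.4%) in T-47D DMSO, against 8.29%. The ZNF genes of other chromosomes had H3K27me3 more often in these 2 lists, at 29.3% and 28.9%. So did the 20 corepressor genes described below, at 10 (50%) and 5 (25%). Whether starts with such a peak are repressed was not tested. The mark was at 0 member starts in Ishikawa DMSO and in T-47D E2, lists of 2199 and 107 regions. All 34 peaks in Ishikawa and 30 of the 31 in T-47D overlapped an H3K4me3 peak of the same line and treatment, as did those of 231 of 240 and 97 of 102 other genes. ZNF497 (18.3), ZNF446 (16.7), ZNF787 (16), ZNF555 (14.8) and ZNF837 (12.4) had the highest fold enrichments in Ishikawa. In T-47D these were ZNF69 (12), ZNF765 (11.5), ZNF420 (11.2), ZNF135 (11) and ZNF554 (10.6). The 2 lists shared 9 members, 26.5% of the first and 29.0% of the second. No member of cluster 7 was in the Ishikawa list and 1 was in the T-47D list.

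The effect of E2 on RNAPII at member starts was the comparison with replicates. Member starts with RNAPII numbered 195.5 ± 41.7 (SD, n = 2) under DMSO and 207 ± 21.2 (SD, n = 2) under E2, a difference of 11.5 that was smaller than the spread between replicates (two-sided exact permutation test over libraries, p = 1). With 2 libraries per treatment the smallest p this test can give is 0.333. For other genes the means were 578.5 and 588.5. The DMSO replicate 2 list set the floor: all of its 166 members were in the other 3 lists too. No member start was gained with E2 (in both E2 lists and no DMSO list) and none was lost, and the counts for other genes were likewise 0 (0% for gained, 0% for lost). Heights moved in opposite ways in the 2 pairs of same-numbered lists: the median log2 ratio of E2 to DMSO fold enrichment was -0.61 over 221 members for replicate 1 and 0.15 over 166 for replicate 2, and for other genes -1.06 and 0.38.

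For the other targets a change with E2 is a difference between 2 single lists. H3K4me3 was at the same members in both Ishikawa lists apart from 1 in each, and in T-47D 199 members were in both, 13 under DMSO alone and 2 under E2 alone. T-47D JUN was in both lists at 213, with 8 under DMSO alone and 1 under E2 alone. All 192 members with Ishikawa TAF1 under E2 also had it under DMSO, where 12 more did, and all 186 with SIN3A in full media also had it in stripped media, where 16 more did. LSD1 was added at 38 members under E2 and lost at 2, and among other genes it was added at 253 and lost at 6, so that the count of starts under E2 was 1.46 times that under DMSO for members and 2.64 times for other genes. The Ishikawa JUN and RARA lists grew from 3768 to 18311 and from 137 to 2883 regions with E2, and the added member starts (55 and 27) go with 275 and 112 added among other genes. T-47D TAF1 was in both lists at 42 members, with 15 under DMSO alone and 32 under E2 alone, and at 120, 19 and 70 other genes.

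Body peaks, whose summit lay more than 1 kb past the start within the gene and which did not touch the 250 bp window of any protein-coding start, were scarce in ZNF genes. A body peak in any list was found in 79 members (31.7%) and 745 other genes (60.5%), although the members were longer, with a median of 25.9 kb against 13.8 kb. In Ishikawa DMSO, H3K4me1 had a body peak in 5 members (2.01%) against 21.4% of other genes, or 1.36 peaks per Mb of body against 28.5. H3K4me3 was in the body of 9 members in each Ishikawa list (3.61%, against 22% and 23.8% of other genes). In T-47D it was in 22 under DMSO (8.84%, against 21%) and 23 under E2 (9.24%, against 17.5%). JUN was in the body of 3 members in Ishikawa E2 (1.20%, against 17.2% of other genes) and 16 in T-47D DMSO (6.43%, against 31.5%). LSD1 was in 6 in Ishikawa E2 (2.41%, against 22.5%). RNAPII was in the body of 33 and 17 members in the DMSO lists and 29 and 11 in the E2 lists, against 40.5%, 11.1%, 32.4% and 15% of other genes.

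A peak of JUN, LSD1 or RARA listed under E2 and not under DMSO was in the body of 7 members in Ishikawa (2.81%, against 22.5% of other genes) and 6 in T-47D (2.41%, against 7.64%). In Ishikawa the 7 were LSD1 in ZNF77 (chr19:2933418-2933678, 12.9-fold), ZNF473 (9.70), the readthrough ZNF816-ZNF321P (8.87) and ZNF787 (6.38), and JUN in ZNF675 (10.5), ZNF581 (10.3) and ZNF430 (8.56). In T-47D the 6 were JUN in ZNF574 (chr19:42584326-42585404, 13.5-fold), ZNF526 (9.39), ZNF446 (8.61), ZNF135 (8.40) and ZNF580 (8.00), and LSD1 in ZNF577 (8.45). No member body had such a RARA peak in either line.

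H3K36me3, the mark laid down along transcribed bodies, was in the bodies of relatively more members than other genes. The Ishikawa list held only 114 regions, 16 of them on chromosome 19, and 8 of these 16 had their summit in the body of a member. They fell in 8 genes (3.21% of members, against 0.650% of other genes of chromosome 19), and per Mb of body they numbered 1.21 against 0.32. ZNF genes elsewhere had such a peak in 5 of 266. The peak in ZNF816 (chr19:53455334-53455790, 13-fold) is intronic and is shared with ZNF816-ZNF321P. ZNF808 (11.4-fold), ZNF441 (9.19) and ZNF211 (7.94) had their summits in the last coding exon, which in these genes holds the finger array. ZNF844 had 2 peaks, 9.84-fold in an intron and 7.36-fold in the last coding exon, and those of ZNF260 (9.55) and ZNF627 (9.11) were intronic. Both ZNF844 summits also lie in other genes that overlap it, so these peaks count for members and for other genes. Peaks in the bodies of other genes alone numbered 6. No member start had H3K36me3.

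Short sequence words differed in how often they stood at member starts and at other starts of chromosome 19. The ETS-type word CCGGAAG was found, on either strand of the 501 bp window, at 125 members (50.2%), 217 other genes (17.6%) and 23.1% of all 1480. The word CCAATCA, which lies in the shared run printed above and was chosen after those sequences were seen, was at 76 members (30.5%) against 9.50% of other genes and 13% of all, and at 36 of the 37 members of cluster 7 against 40 of the 212 elsewhere. The AP-1 word TGANTCA was at 7.63% of members and 6.50% of other genes (6.69% of all), and at 15 of the 221 members with JUN in T-47D DMSO (6.79%). The E-box CACGTG was at 5.22% of members and 12.7% of other genes (11.4% of all), and GGGCGG at 79.9% and 74.2% (75.2%). A match is a word in the window, not a bound site.

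Genes of the pathway through which KRAB proteins act were marked at their starts in both lines. Of 20 corepressor genes, among them TRIM28, SETDB1, the HP1 genes CBX1, CBX3 and CBX5, the HUSH subunits TASOR, MPHOSPH8 and PPHLN1, and DNMT1, all 20 had H3K4me3 in both Ishikawa lists, and 18 and 16 in the T-47D DMSO and E2 lists. ATF7IP and MORC3 lacked it in both T-47D lists but had RNAPII there, at 28.9 and 67.0 in DMSO replicate 1. TRIM28 had H3K4me3 at 8.16 and 11.7 in Ishikawa and 12.4 in T-47D DMSO, and SETDB1 at 23.8, 21.3, 21.2 and 17.3 in the 4 lists. The share with H3K4me3 over all protein-coding genes was not counted, so these counts do not set the pathway apart. For other genes of chromosome 19 it was 56.7% and 58.6% in Ishikawa DMSO and E2, and 50.4% and 44.1% in T-47D. Of 20 other zinc finger genes of chromosome 19 (symbols starting with ZFP, ZSCAN, ZBTB, ZIK, ZIM, MZF or PEG3), 11 had H3K4me3 in each Ishikawa list (55%) and 10 in each T-47D list (50%), near the shares of other genes. The mark was in no list at 9 of them: PEG3, ZIM2, ZIM3, ZIK1, ZBTB32, ZSCAN1, ZSCAN4, ZSCAN5B and ZSCAN5C.

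As a check of the labels, H3K4me3 was at the start of the epithelial gene KRT8 in all 4 lists and of the luminal gene GATA3 in the T-47D lists alone (18.8 and 19.1), and the leukocyte genes PTPRC and CD3E had none. EPCAM was marked in 3 lists, not in T-47D E2. KRT18 had no peak within 250 bp in T-47D, and SOX17 had one in Ishikawa E2 alone (6.95). The lists held 2 to 46282 regions and state no sequencing depth, and whether depth accounts for a missing peak was not tested.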

How the data were processed

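Peak lists of 45 ChIP-seq libraries were analysed; the 4 input samples have no list. Per the methods of the study and the submitters' processing notes, the authors aligned reads to hg19 with Bowtie 1.1.2, dropping reads that fitted more than 1 place, and ran peak calling on each library with MACS2 2.1.0.20140616. The deposited lists hold for each region a score (derived from the p-value), the −log10 of its p-value and of its q-value, the summit, and the fold enrichment as a ratio to local background; the lowest deposited −log10 p was 10.0. The authors' peaks were used without further filter. No sequencing depth is given. An exact binomial interval on the shares had been planned, and the shares are printed without it.

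Gene starts and bodies were taken from GENCODE 44 mapped to GRCh37 (hg19), with 1 start per gene, that of the canonical transcript; 3 members lacked one and took the coding transcript with the longest coding sequence. Start windows were 250 bp either side, with an overlap of 1 bp. Bodies began 1000 bp past the start. Fingers were counted as cysteine, 2 to 4 residues, cysteine, 12 residues, histidine, 3 to 5 residues, histidine, in canonical coding sequences translated from the genome; RefSeq proteins had been planned and were not used here. Python 3.11.15 was used with NumPy 2.4.6, Biopython 1.88 and matplotlib 3.10.9. The peak assignment was run on simulated lists with known positions and recovered all placed peaks. Those peaks were placed within the same start and body intervals, so this checks the code and not how real peaks are assigned.

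Groups came from the sample labels. Only T-47D RNAPII was tested, by an exact permutation test over libraries; nothing says whether its replicates came from separate cultures, so the test measures only the spread between these libraries. Members were named by set rules: up to 8 per line with H3K4me3 in 1 line alone and per direction of RNAPII change, 5 per line with most targets, up to 10 with H3K36me3 bodies, up to 5 per line with H3K27me3 starts and with body peaks gained under E2, 5 with most fingers, and 7 well-known genes. The members, gene lists and tests were chosen with earlier results of these data known. Wider windows, all annotated starts, a fold enrichment of 10, an overlap of 250 bp, no readthrough genes, and each RNAPII library left out were tried.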

Additional observations from a re-analysis of the deposited data

Results flagged for a closer look

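The number of member starts with a peak moved in opposite directions with E2 in the 2 lines for 5 targets. Each value is the E2 list minus the DMSO list, with 1 list per arm, and the difference between lines was not tested. H3K27me3 was at 34 more member starts in Ishikawa and fell by 31 in T-47D. JUN was at 55 more in Ishikawa and fell by 7 in T-47D. RARA was at 27 more in Ishikawa and fell by 2 in T-47D. TAF1 fell by 12 in Ishikawa and was at 17 more in T-47D. MAX fell by 6 in Ishikawa and was at 4 more in T-47D. The number of other chromosome 19 starts moved in the same direction as the members in each of these pairs of lists except T-47D JUN, where it rose from 626 to 669.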

How the results depend on the processing

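Leaving out readthrough genes moved no result by over 1.5 times. In each of 4 other settings the share of members was above that of other genes in the same number of lists, 19 of 22. Those 22 lists were picked by the members' own count of 20 or more in the main setting. With a fold enrichment of at least 10, member starts numbered 21 for Ishikawa H3K27me3 E2, 4 for JUN E2, 27 and 59 for LSD1 DMSO and E2, 7 for RARA E2, 8 for T-47D H3K27me3 DMSO and 10 and 15 for T-47D TAF1 DMSO and E2; the Ishikawa H3K4me3 class held 33, H3K36me3 bodies 3, and RNAPII bodies 17, 7, 19 and 5. With an overlap of 250 bp they numbered 19, 37 and 13 for Ishikawa H3K27me3, JUN and RARA E2, 13 for T-47D H3K27me3 DMSO and 100 and 59 for T-47D H3K4me3 DMSO and E2, and the classes held 89 (Ishikawa) and 3 (T-47D). The window of 1000 bp left 8 in the Ishikawa class and 14 in the T-47D class. Any overlap with the gene gave RNAPII in 230, 169, 227 and 195 members. The cause of these moves was not tested beyond the settings' own construction.

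For RNAPII, leaving out 1 library gave a difference between -18 (without DMSO replicate 2) and 41 (without DMSO replicate 1), and -3.5 without E2 replicate 1. Gained starts then ranged from 0 to 26 and lost starts from 0 to 4, so the counts of 0 rest on having both replicates: 26 were gained without DMSO replicate 1, 1 without E2 replicate 2, and 4 were lost without DMSO replicate 2. The replicate block left the difference at 11.5 (exact sign-flip test, p = 1). Same-numbered libraries deviated together (r = 0.59 over 20098 genes, 1 difference per treatment), and the labels do not say that a number marks a shared batch.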
